A study of Mus musculus with 6 samples.

Results

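Cdkn2a, Cdkn2b, Cdkn2c and Cdkn1b encode inhibitors of the cyclin-dependent kinases (CDKs) that carry a cell from G1 into S phase, and their transcripts were followed in PGCLCs, mouse cells resembling primordial germ cells, after induced deletion of Ezh2. They were taken by name as cell-cycle inhibitors, 4 genes of 37991 gene IDs in the count table. No measured value entered the rule, but earlier results of these data were known when the genes were chosen. All 4 were found by Ensembl ID and all 4 passed the filter on low counts, Cdkn2c only just. RNA-seq libraries came from PGCLCs on day 4 of induction, made from C57BL/6 embryonic stem cells through epiblast-like cells and aggregated with BMP2, SCF, LIF and EGF. Both groups came from Ezh2f/f cells with the CreERT2 recombinase, and cells were sorted by a gate that the labels do not name. The 3 Ctrl libraries came from aggregates given ethanol, and the 3 Ezh2 KO libraries, whose genotype is labelled Ezh2-/-, from aggregates given 4-hydroxytamoxifen in ethanol. The control did not receive the tamoxifen compound, so effects of the compound and of the deletion cannot be told apart. The labels do not say whether replicates were separate inductions, so p-values cover the spread between these libraries, part of which may be technical.

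Proteins of the INK4 family bind Cdk4 and Cdk6 and keep cyclin D from activating them, which leaves the retinoblastoma proteins able to hold E2F factors in check. Cdkn2b (p15Ink4b) and Cdkn2c (p18Ink4c) are INK4 genes. Cdkn2a makes an INK4 protein, p16Ink4a, from one first exon, and from another, in a different reading frame, p19Arf, which blocks Mdm2 and so stabilises p53. Cdkn1b (p27Kip1) belongs to a different family that acts mainly on cyclin E and cyclin A complexes with Cdk2, and its amount is set largely by protein degradation. The neighbouring genes Cdkn2a and Cdkn2b are a classic target of polycomb repression in fibroblasts and stem cells. Ezh2 is the methyltransferase of polycomb repressive complex 2, which acts chiefly at CpG-rich starts of silent genes.

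Because polycomb repression is tied to CpG density, the 250 bases before the annotated starts are shown 5′ to 3′ from RefSeq (GRCm38.p6), with every CG dinucleotide in capitals. The first is the upstream start of Cdkn2a, from which the p19Arf transcript runs (chr4:89294620-89294869, minus strand). The second is its downstream start, that of the p16Ink4a transcript (chr4:89282193-89282442, minus strand). They are followed by Cdkn2b (chr4:89311033-89311282, minus strand) and Cdkn1b (chr6:134920151-134920400, plus strand).
Cdkn2a, upstream start: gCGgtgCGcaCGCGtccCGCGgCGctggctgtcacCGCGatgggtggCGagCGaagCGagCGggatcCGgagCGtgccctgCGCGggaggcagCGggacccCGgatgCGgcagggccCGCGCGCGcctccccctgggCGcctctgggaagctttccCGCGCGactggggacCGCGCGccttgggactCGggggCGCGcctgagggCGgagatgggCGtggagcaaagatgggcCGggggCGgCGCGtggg
Cdkn2a, downstream start: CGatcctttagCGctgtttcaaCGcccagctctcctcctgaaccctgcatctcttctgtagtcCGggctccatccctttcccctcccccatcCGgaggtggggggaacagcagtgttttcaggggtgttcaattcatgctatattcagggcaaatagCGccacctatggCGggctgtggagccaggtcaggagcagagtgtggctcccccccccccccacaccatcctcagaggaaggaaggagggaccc
Cdkn2b: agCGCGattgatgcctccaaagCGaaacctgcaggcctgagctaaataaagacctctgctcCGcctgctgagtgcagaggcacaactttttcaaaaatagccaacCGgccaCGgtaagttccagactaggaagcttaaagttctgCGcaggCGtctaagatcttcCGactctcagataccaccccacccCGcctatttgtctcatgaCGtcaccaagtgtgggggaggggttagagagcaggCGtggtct
Cdkn1b: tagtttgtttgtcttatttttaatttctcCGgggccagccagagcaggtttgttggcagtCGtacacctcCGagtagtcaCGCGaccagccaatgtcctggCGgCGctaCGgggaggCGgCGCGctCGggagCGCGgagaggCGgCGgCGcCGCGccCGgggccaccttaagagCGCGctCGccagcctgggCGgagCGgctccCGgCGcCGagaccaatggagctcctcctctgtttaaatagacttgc

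The CG dinucleotides were unevenly spread over these windows. The upstream Cdkn2a window held 40 of them, more than 98.7% of 32851 RefSeq windows of the same length (median 6). The downstream one held 7 (more than 53.7% of windows), Cdkn2b 12 (66.5%) and Cdkn1b 28 (92.4%). Of the 2 Cdkn2c windows, not shown, the upstream one held 29 (93.2%) and the other 6 (49.6%). CG dinucleotides after the starts were not counted. The GC box GGGCGG, searched on both strands, occurred 2 times before the upstream Cdkn2a start, 3 times in the upstream Cdkn2c window and 1 time before Cdkn1b, and was not in the Cdkn2b and downstream Cdkn2a windows. It was present in 32.7% of all windows. One of 4 spellings of the E2F site (TTTCCCGC, TTTGGCGC, TTTCGCGC, TTTGCCGC, both strands) matched 1 time, before the upstream Cdkn2a start, and 1.9% of all windows held one. The 2 Cdkn2a starts lie 12.4 kb apart, and the Cdkn2b start lies 16.4 kb upstream of the first of them. The deposited counts are summed over each gene, so the Cdkn2a values below do not separate p19Arf from p16Ink4a transcripts.

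Levels are given as CPM, which puts libraries of unequal depth on one scale (TMM normalisation in edgeR). Total counts ran from 27072150 to 49382146 per library. Ezh2 itself, counted over the whole gene and so including exons outside the deleted part, was at 78.1 to 95.3 CPM in Ctrl and at 40.8, 67.1 and 70.0 CPM in Ezh2 KO replicates 1 to 3. It was lower in every Ezh2 KO library, without passing the test (log2 fold change -0.58 ± 0.23 SE, edgeR adjusted p = 0.976). The 8 listed germ cell markers were all counted, at unequal levels. Over the 6 libraries Dppa3 ran from 135 to 255 CPM, Tfap2c from 143 to 315 CPM and Prdm14 from 45.1 to 71.5 CPM. Kit ran from 59.6 to 272 CPM and Dnd1 from 8.30 to 28.7 CPM. Lower still were Nanos3 (5.09 to 15.6 CPM), Prdm1 (3.08 to 7.24 CPM) and Itgb3 (1.85 to 5.03 CPM). Ezh2 KO replicate 2 stood apart from the rest, at the end of a first principal component that held 55.5% of the variance and had Ctrl replicate 1 at its other end. Ezh2 KO replicate 2 had the fewest counts and Ctrl replicate 1 the most. Their mitochondrial shares, 3.37% and 1.79%, were the highest and the lowest of the 6 libraries. A relation of these to the component was not tested.

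None of the 4 inhibitors passed the test for a change. In edgeR's quasi-likelihood test 0 of the 4 passed an adjusted p of 0.05, as did 0 of all 16420 tested genes (0%). An unadjusted p under 0.05 was reached by 0 of the 4 and by 459 genes in all (2.80%, or 1.55% higher and 1.25% lower in Ezh2 KO). With the replicate number as a block 0 of the 4 reached it, and 9.10% of tested genes did. DESeq2 called 0 of the 4 and 5 genes in all (0.0201% of those it tested), and with the replicate block 0 of the 4 and 50 genes (0.285%). Limma-voom called 0 genes. In 0 of the 4 did the Ctrl and Ezh2 KO libraries stand clear of each other, as they did in 8.09% of tested genes (4.07% higher, 4.03% lower). The plot of CPM by library shows each measurement with its counting interval.

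**Figure D1:**
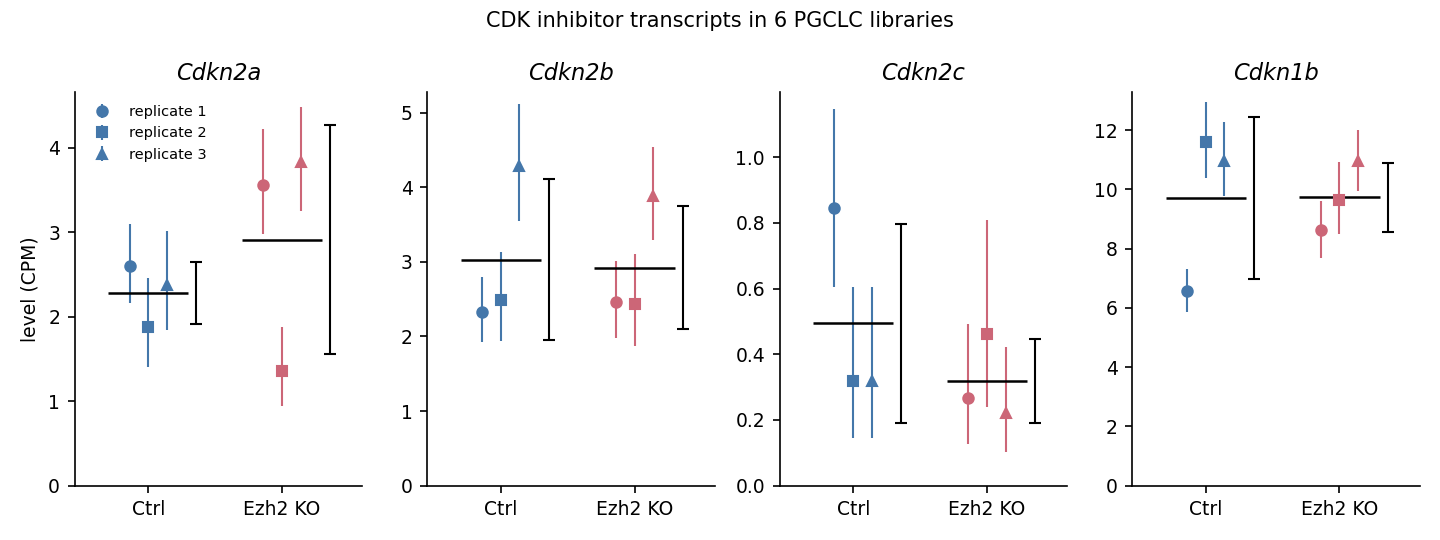
Level of each inhibitor in CPM (vertical axis, from 0, a separate scale per gene) in the 3 Ctrl and 3 Ezh2 KO libraries, with marker shape for the replicate number. Thin bars are exact 95% Poisson intervals of each count, horizontal lines group means and capped bars SD (n = 3); the groups overlap in every panel, and the Cdkn2b libraries numbered 3 are the high ones in both groups.

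Cdkn2a transcripts were scarce but counted in every library. In Ctrl, replicates 1 to 3 measured 2.598, 1.88 and 2.37 CPM (126, 53 and 67 reads). In Ezh2 KO they measured 3.56, 1.35 and 3.83 CPM (133, 35 and 155 reads). Ezh2 KO replicates 1 and 3 lay above all Ctrl libraries, and Ezh2 KO replicate 2 lay below them all, so the groups overlap. Ctrl averaged 2.28 ± 0.367 CPM and Ezh2 KO 2.91 ± 1.36 CPM (SD, n = 3 each). The log2 fold change was 0.36 ± 0.42 SE (95% interval -0.61 to 1.32), with an unadjusted p of 0.423 and an adjusted p of 0.976 in edgeR. As a fold this interval runs from 0.654 to 2.50, so a 2.50-fold rise and a fall to 0.654 of the Ctrl level both lie inside it. By exact permutation (two-sided, on CPM) p was 0.5, where 3 libraries against 3 cannot give less than 0.1.

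The spread of Cdkn2a in Ezh2 KO exceeded its counting error. The exact 95% Poisson interval of Ezh2 KO replicate 2, 0.941 to 1.88 CPM, did not reach those of replicate 1 (2.98 to 4.22 CPM) or replicate 3 (3.25 to 4.48 CPM). These intervals cover counting error only, and reads made by amplification are not independent molecules. With Ezh2 KO replicate 2 left out, Cdkn2a had a log2 fold change of 0.70 ± 0.30 SE (unadjusted p = 0.0506, adjusted p = 1.000 in edgeR). Without Ctrl replicate 1 as well it was 0.80 ± 0.35 SE (unadjusted p = 0.0506). Without Ezh2 KO replicate 3 it was 0.11, and without Ezh2 KO replicate 1 0.19. Cdkn2a transcripts are GC-rich (59.1% over annotated transcripts), and with an offset for transcript GC content in each library the log2 fold change was 0.52 ± 0.33 SE (unadjusted p = 0.147, adjusted p = 0.962). With that offset and the replicate number as a block it was 0.50 ± 0.25 SE (unadjusted p = 0.0671, adjusted p = 0.541).

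Ezh2 and Cdkn2a levels of the Ezh2 KO libraries are given side by side, and a relation between them was not tested. Replicate 1 held 40.8 CPM of Ezh2 and 3.56 CPM of Cdkn2a, replicate 2 held 67.1 and 1.35 CPM, and replicate 3 held 70.0 and 3.83 CPM. The Poisson intervals of Cdkn2a in replicates 1 and 3 overlap (2.98 to 4.22 and 3.25 to 4.48 CPM), so their order is not resolved. The Ezh2 counts include exons outside the deleted part, so they do not rank the libraries by deletion.

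Cdkn2b differed more between replicate numbers than between the groups. Its CPM in Ctrl were 2.33, 2.48 and 4.28 for replicates 1 to 3, and the Ezh2 KO values were 2.46, 2.43 and 3.88. The libraries numbered 3 were the highest of each group, and the other 4 lay between 2.33 and 2.48 CPM. Between libraries of the same number the log2 difference, Ezh2 KO over Ctrl, was 0.08, -0.03 and -0.14. Ctrl averaged 3.03 ± 1.08 CPM, Ezh2 KO 2.92 ± 0.827 CPM (SD, n = 3 each). The log2 fold change was -0.05 ± 0.37 SE (95% interval -0.88 to 0.79, edgeR adjusted p = 0.993), and the exact permutation p was 0.8. With the replicate block, its interval was -0.59 to 0.52, or 0.666-fold to 1.44-fold.

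Cdkn2a and Cdkn2b, which share a locus, were also compared within each library. The log2 ratio of Cdkn2a to Cdkn2b reads (0.5 added to each) came to 0.16, -0.40 and -0.85 for Ctrl replicates 1 to 3. For Ezh2 KO it came to 0.53, -0.84 and -0.02. Both groups spanned negative and positive ratios, and the groups overlap. The mean ratio was higher by 0.25 in Ezh2 KO (exact two-sided permutation p = 0.7). Over the 6 pairs that the 4 genes form, the smallest such p was 0.5, and the adjusted p was 0.9 for every pair.

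The neighbours of these genes were read from the same counts. Mtap, a methionine salvage enzyme gene that lies next to Cdkn2a, ran from 67.3 to 83.2 CPM in Ctrl, against 68.3 to 80.9 CPM after deletion (log2 fold change 0.03). Dmrta1, a DMRT-family transcription factor gene on the Cdkn2b side, held at most 0.0772 CPM in any library and was not tested. Faf1, beside Cdkn2c, had a log2 fold change of -0.06. Around Cdkn1b the values were -0.34 for the orphan receptor gene Gpr19, 0.33 for Apold1, 0.08 for the RNA helicase gene Ddx47 and -0.18 for Crebl2. Of these 6 tested neighbours 0 passed the edgeR test, and Gpr19 was the 1 whose groups did not overlap (Ctrl 21.9 to 26.4 CPM, Ezh2 KO 16.6 to 21.4 CPM), where 8.09% of all tested genes did not.

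Cdkn2c was the scarcest of the 4. Ctrl replicates 1 to 3 gave 41, 9 and 9 reads (0.845, 0.319 and 0.318 CPM). The Ezh2 KO replicates gave 10, 12 and 9 reads (0.267, 0.463 and 0.222 CPM). Ctrl replicate 1 was high, and the other 5 libraries lay together. Ctrl averaged 0.494 ± 0.304 CPM, Ezh2 KO 0.318 ± 0.128 CPM (SD, n = 3 each). The log2 fold change was -0.71 ± 0.56 SE (95% interval -1.99 to 0.57, edgeR adjusted p = 0.976, exact permutation p = 0.5). The exact 95% Poisson interval of Ctrl replicate 1, 0.607 to 1.15 CPM, barely cleared those of Ctrl replicates 2 and 3, which ended at 0.606 and 0.604 CPM. It overlapped that of Ezh2 KO replicate 2 (0.239 to 0.809 CPM), so counting error does not separate these libraries. With no filter the log2 fold change was -0.74. Without Ctrl replicate 1 Cdkn2c no longer passed the filter, and a fit of those 5 libraries with no filter gave -0.03 ± 0.69 SE.

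Cdkn1b had the most reads of the 4. Its CPM were 6.56, 11.6 and 10.97 for Ctrl replicates 1 to 3, against 8.61, 9.65 and 10.94 for the Ezh2 KO replicates. The replicates numbered 1 were the lowest of each group, and the Ezh2 KO range lay inside the Ctrl range. Ctrl averaged 9.71 ± 2.75 CPM, Ezh2 KO 9.74 ± 1.17 CPM (SD, n = 3 each). The log2 fold change was 0.01 ± 0.28 SE (95% interval -0.64 to 0.66, edgeR adjusted p = 0.999, exact permutation p = 1.0). As a fold the interval runs from 0.640 to 1.58, the narrowest of the 4.

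Levels of the 4 genes were set side by side only per length, as CPM per kilobase of annotated exon (GENCODE M21), a scale that depends on which exons are in use. In Ctrl the order was Cdkn2b at 2.18 ± 0.780, Cdkn1b at 2.13 ± 0.604, Cdkn2a at 1.95 ± 0.313 and Cdkn2c at 0.184 ± 0.113 CPM per kilobase (SD, n = 3). In Ezh2 KO it was Cdkn2a at 2.48 ± 1.16, Cdkn1b at 2.14 ± 0.257, Cdkn2b at 2.10 ± 0.595 and Cdkn2c at 0.118 ± 0.0477 CPM per kilobase. The first 3 did not differ from each other beyond their spread in either group, and they lay near the 40th percentile of tested genes (40.1 to 40.8). Cdkn2c was set apart: its highest library, at 0.315 CPM per kilobase, was below the lowest library of any other member, at 1.15, and its mean was at percentile 5.89. With the longest coding transcript as the length, Cdkn2a stood first in both groups, at 2.55 ± 0.410 CPM per kilobase in Ctrl and 3.25 ± 1.52 in Ezh2 KO.

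**Figure D2:**
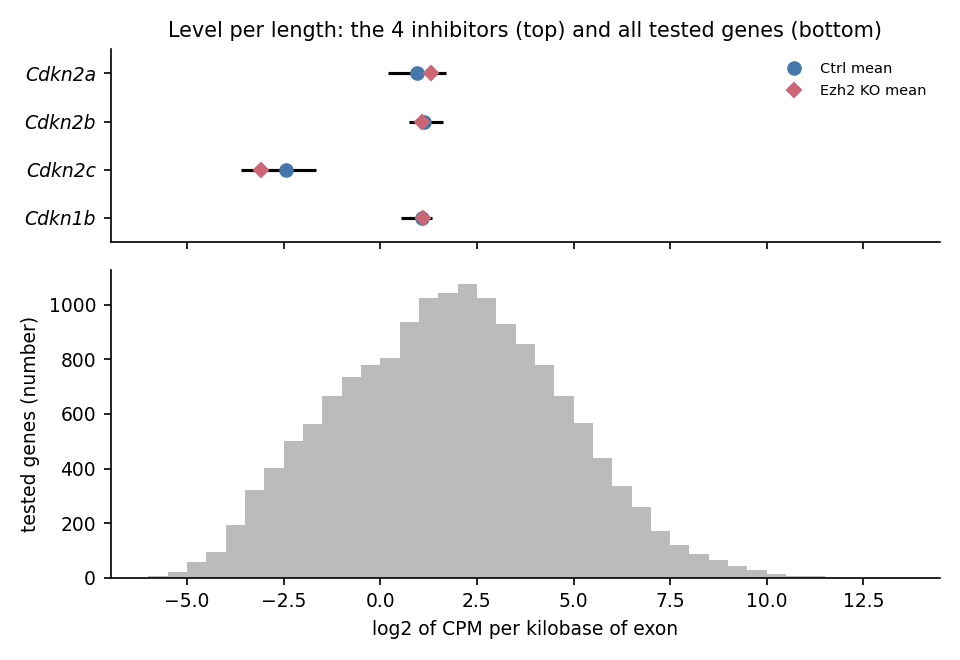
Top, level per length of each inhibitor on a log2 scale of CPM per kilobase of exon, with the Ctrl mean (circle), the Ezh2 KO mean (diamond) and a bar from the lowest to the highest of the 6 libraries. Bottom, number of tested genes at each mean level on the same axis; Cdkn2a, Cdkn2b and Cdkn1b lie near the 40th percentile and Cdkn2c at 5.89.

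The genes on which these inhibitors act, and those that control them, gave no call either. Of 85 symbols listed around the G1 to S pathway, 83 matched a gene ID and 81 were tested, the 4 inhibitors included. In edgeR 0 passed. Ezh2, lower, and Ccng1, higher, were the 2 with an unadjusted p under 0.05, against 2.80% of all tested genes. With the replicate block 5 reached it (2 higher, 3 lower), against 9.10% of all tested genes, and 0 passed after adjustment. These 5 were Ezh2, Cbx8 and Kdm6b, lower, and Ccng1 and Ccne2, higher. In sign, 40 had a positive and 41 a negative log2 fold change, and the median was 0.00 against 0.01 over all tested genes. DESeq2 called 0 of them with or without the replicate block.

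Of the other CDK inhibitors, Cdkn1a (p21), a target of p53, measured 72.9, 97.0 and 69.7 CPM in the Ctrl libraries, against 73.2, 149 and 88.8 CPM after deletion (log2 fold change 0.38 ± 0.28 SE, adjusted p = 0.976 in edgeR). Its high value was in Ezh2 KO replicate 2, the library in which Cdkn2a was lowest. Cdkn1c (p57), an imprinted inhibitor, measured 4.12, 2.55 and 7.39 CPM in the Ctrl libraries, against 1.98, 3.09 and 9.71 CPM after deletion (0.08). Like Cdkn2b it was highest in the libraries numbered 3.

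Among the direct targets of the INK4 proteins, Cdk4 stood between 575 and 707 CPM in Ctrl, against 519 to 628 CPM after deletion (log2 fold change -0.15), and Cdk6 had a log2 fold change of -0.29. The D cyclins had 0.26 for Ccnd1, -0.49 for Ccnd2 and -0.45 for Ccnd3. Ccnd3 ran from 437 to 846 CPM in Ctrl and held 764, 125 and 481 CPM in Ezh2 KO replicates 1 to 3, and replicate 2 was the low one.

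Among the genes listed with cyclin E, cyclin A and Cdk2, Ccne2 measured 17.9, 37.9 and 39.6 CPM in the Ctrl libraries. After deletion this E-type cyclin gene measured 42.7, 53.6 and 46.3 CPM. Every Ezh2 KO library lay above every Ctrl library, but the log2 fold change of 0.58 ± 0.30 SE did not pass (unadjusted p = 0.0919, adjusted p = 0.976 in edgeR). With the replicate block it was 0.66 ± 0.23 SE (unadjusted p = 0.0193, adjusted p = 0.481). The rest of that group had log2 fold changes of 0.32 for Ccne1, 0.09 for Ccna2, -0.67 for the scarce Ccna1, -0.16 for Cdk2 and 0.21 for the phosphatase gene Cdc25a. Genes for p27 turnover and transcription had values from -0.48 to 0.15. The F-box protein gene Skp2, which marks p27 for degradation, had 0.15 (unadjusted p = 0.368 in edgeR). Its groups did not overlap (Ctrl 88.6 to 90.3 CPM, Ezh2 KO 91.0 to 113 CPM), where 8.09% of all tested genes did not. Its cofactor Cks1b had 0.02, and the ubiquitin ligase genes had 0.03 for Skp1a, -0.10 for Cul1, 0.10 for Rbx1, -0.48 for Rnf123 and 0.00 for Ubac1. The forkhead factors that can switch on Cdkn1b had 0.06 for Foxo1, 0.08 for Foxo3 and -0.48 for Foxo4.

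Downstream, the pocket proteins had log2 fold changes of 0.06 for Rb1, -0.33 for Rbl1 and 0.27 for Rbl2. The 10 E2F and DP factors ran from -0.27 to 0.39 with a median of -0.04, and those of smallest p were Tfdp2 (-0.26) and E2f7 (0.39). The 16 S-phase genes that E2F factors drive ran from -0.35 to 0.15 with a median of -0.03, and those of smallest p were Mcm4 (0.14) and Mcm2 (-0.35). Their summed level ran from 5778 to 6562 CPM in Ctrl, against 5615 to 6571 CPM after deletion.

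Repressors of the Ink4/Arf locus other than Ezh2 included Cbx8, a chromobox protein gene of polycomb repressive complex 1, at 1.24, 1.49 and 1.63 CPM in the Ctrl libraries, against 1.04, 0.425 and 0.865 CPM after deletion. All Ezh2 KO libraries were lower, and the log2 fold change of -0.88 ± 0.41 SE did not pass (unadjusted p = 0.0622, adjusted p = 0.976 in edgeR). With the block the unadjusted p was 0.0346 and the adjusted p 0.506. The other polycomb genes had -0.06 for Bmi1, -0.45 for Cbx7, -0.59 for Ring1, 0.26 for Rnf2, 0.03 for Eed, 0.02 for Suz12 and -0.03 for Kdm2b. Of the repressing transcription factors, Tbx3 had -0.04, Id1 0.23 and Zbtb7a -0.45, while Tbx2 and Twist1 were too scarce to test. Of 9 activators, those of smallest p were the H3K27 demethylase gene Kdm6b (-0.69 ± 0.34 SE) and Myc (0.40 ± 0.22 SE), and 0 passed. For Kdm6b the unadjusted p in edgeR was 0.0776, and 0.0474 with the block (adjusted p = 0.544).

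The p53 arm that p19Arf feeds gave Mdm2 a log2 fold change of 0.00 and Trp53 one of 0.08. The smallest p in that list were those of Ccng1, a p53 target (0.46 ± 0.19 SE, unadjusted p = 0.047, adjusted p = 0.976 in edgeR), and Bax, a p53 target that promotes cell death (-0.23 ± 0.13 SE, unadjusted p = 0.114). Of 8 genes in that list 3 had groups that did not overlap (2 higher, 1 lower), against 8.09% of all tested genes. Npm1, which binds p19Arf in the nucleolus, was higher at 2544 to 3130 CPM in Ezh2 KO against 2251 to 2532 CPM. The other two were Ccng1, higher at 193 to 234 CPM in Ezh2 KO against 118 to 189 CPM, and Bax, lower at 373 to 420.45 CPM against 420.93 to 511 CPM. Elsewhere, 1 of 6 genes listed with cyclin E, cyclin A and Cdk2 and 1 of 10 for p27 turnover and transcription did not overlap. Of tested Ink4/Arf repressors 2 of 12 did not, of S-phase genes 0 of 16, and of E2F and DP factors 0 of 10. Each remaining cell-cycle list had 0. Whether the p53 list exceeded the general share was not tested.

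**Figure D3:**
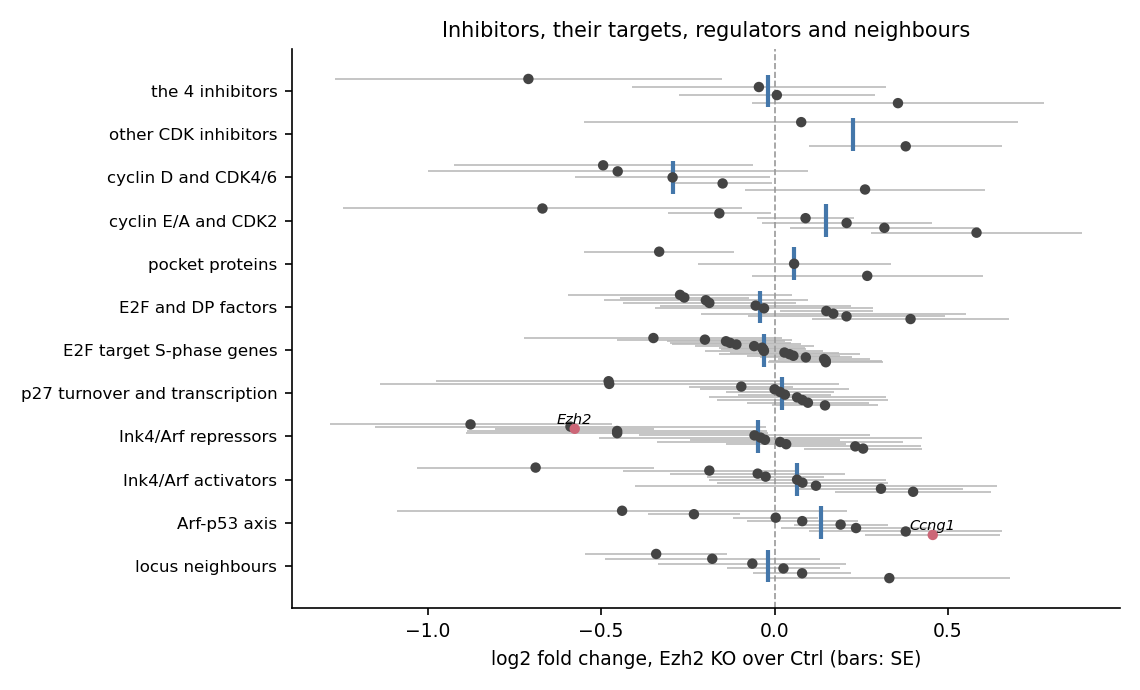
Log2 fold change, Ezh2 KO over Ctrl, of each tested gene (points, with bars of 1 SE) in the lists around the 4 inhibitors, with the median of each list as a vertical bar. Red points with names, Ezh2 and Ccng1, had an unadjusted p under 0.05; 0 passed after adjustment, and the 4 inhibitors lie between -0.71 and 0.36.

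Markers of other cells that an aggregate could hold were low in the fibroblast, endoderm, mesoderm and neuroectoderm lists and higher in the others. The blood and endothelium list summed to 120 to 198 CPM in Ctrl and 117 to 199 CPM in Ezh2 KO. Most of this was Pecam1, at 112 to 194 CPM over the 6 libraries, and which cells carried it was not tested. Gata1 ran from 2.01 to 4.68 CPM, and Cdh5, Hbb-bh1 and Ptprc held at most 0.865, 0.267 and 0.0247 CPM in any library. The epiblast list summed to 56.2 to 71.9 CPM in Ctrl and 81.9 to 105 CPM in Ezh2 KO. For the trophoblast list it was 26.3 to 36.3 CPM and 29.2 to 37.6 CPM. Of 8 fibroblast markers 4 were tested. The summed level of all 8 ran from 5.94 to 8.47 CPM in Ctrl, against 2.59 to 5.38 CPM after deletion, lower without overlap. The epiblast sum, higher, and the endoderm sum, lower, did not overlap either, and how often such sums stand clear by chance was not tested. Col1a1 was the largest part of the fibroblast sum in every library, and its own groups overlapped (2.72 to 5.63 CPM, against 1.00 to 3.10 CPM after deletion). Thy1 and Lum had higher means after deletion, and the rest had lower ones. Dcn and Lum held at most 0.248 CPM in any library. Col1a2 (-1.16 ± 0.45 SE) and Col1a1 (-0.87 ± 0.47 SE) had the smallest p. Fibroblasts can express Cdkn2a and Cdkn2b, and in bulk RNA fewer cells of a type and less RNA per cell cannot be told apart; the part of such cells in the Cdkn2a and Cdkn2b levels was not tested. The summed endoderm markers ran from 1.56 to 3.03 CPM in Ctrl, against 0.849 to 1.51 CPM after deletion. By smallest p, the endoderm markers were led by Sox17 (-1.63) and Gata6 (-0.88), and the neuroectoderm markers by Neurog1 (-2.37) and Pax6 (-0.59). The trophoblast markers were led by Cdx2 (-1.15) and Elf5 (1.10), and the mesoderm markers by Hand1 (0.21) and Kdr (-0.17). Cdh5 (0.81) and Gata1 (-0.20) led the markers of blood and endothelium. The largest of these changes were in scarce genes. Sox17 ran from 0 to 0.639 CPM over the 6 libraries, Neurog1 from 0.0772 to 1.61 CPM, Cdx2 from 0.270 to 0.991 CPM and Elf5 from 0.371 to 1.42 CPM. Each of these 4 had an adjusted p of 0.976 in edgeR. Of the epiblast markers, Dnmt3b had 0.63, Otx2 0.23 and Fgf5 -0.30, while Pou3f1 held 0 reads in all 6 libraries. Most of the summed epiblast level was Dnmt3b, at 44.4 to 51.9 CPM in Ctrl and 55.0 to 91.3 CPM in Ezh2 KO. Fgf5 held at most 1.63 CPM. Tfap2c (-0.41) and Prdm1 (-0.47) had the smallest p among 8 germ cell markers, of which 0 passed. The germ cell markers summed to 680 to 952 CPM in Ctrl, against 590 to 729 CPM after deletion.

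The genes whose levels ran most like each inhibitor over the 6 libraries were found by the root mean square difference of centred log2 CPM, among the 12233 genes whose mean log2 CPM was 1 or more. For Cdkn2a they were Amn (0.08), Plvap (0.13) and Capn2 (0.15), where the median gene had 0.57. Amn, for example, held 9.39, 3.44 and 8.50 CPM in Ezh2 KO replicates 1 to 3, with the same low second library as Cdkn2a. For Cdkn2b they were Rmdn2 (0.10), Scrn1 (0.11) and Cnpy1 (0.12), for Cdkn2c Phpt1 (0.13), Pla2g1b (0.23) and Gm9762 (0.23), and for Cdkn1b Tial1 (0.05), Fndc3a (0.05) and Unc13b (0.06). These likenesses are a description over 6 libraries that differ in depth.

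Each inhibitor was refitted in other ways. Cdkn2a was positive in all 16 other fits, from 0.11 to 0.80. Cdkn2c was negative in all 14 planned fits that gave it a value, from -1.04 to -0.37, and stood at -0.03 in the added fit without Ctrl replicate 1. The fits reuse the same libraries, so a shared sign is not independent evidence. Cdkn2b and Cdkn1b crossed 0, from -0.30 to 0.26 and from -0.21 to 0.15. In 0 of these fits did a member reach an unadjusted p under 0.05.

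**Figure D4:**
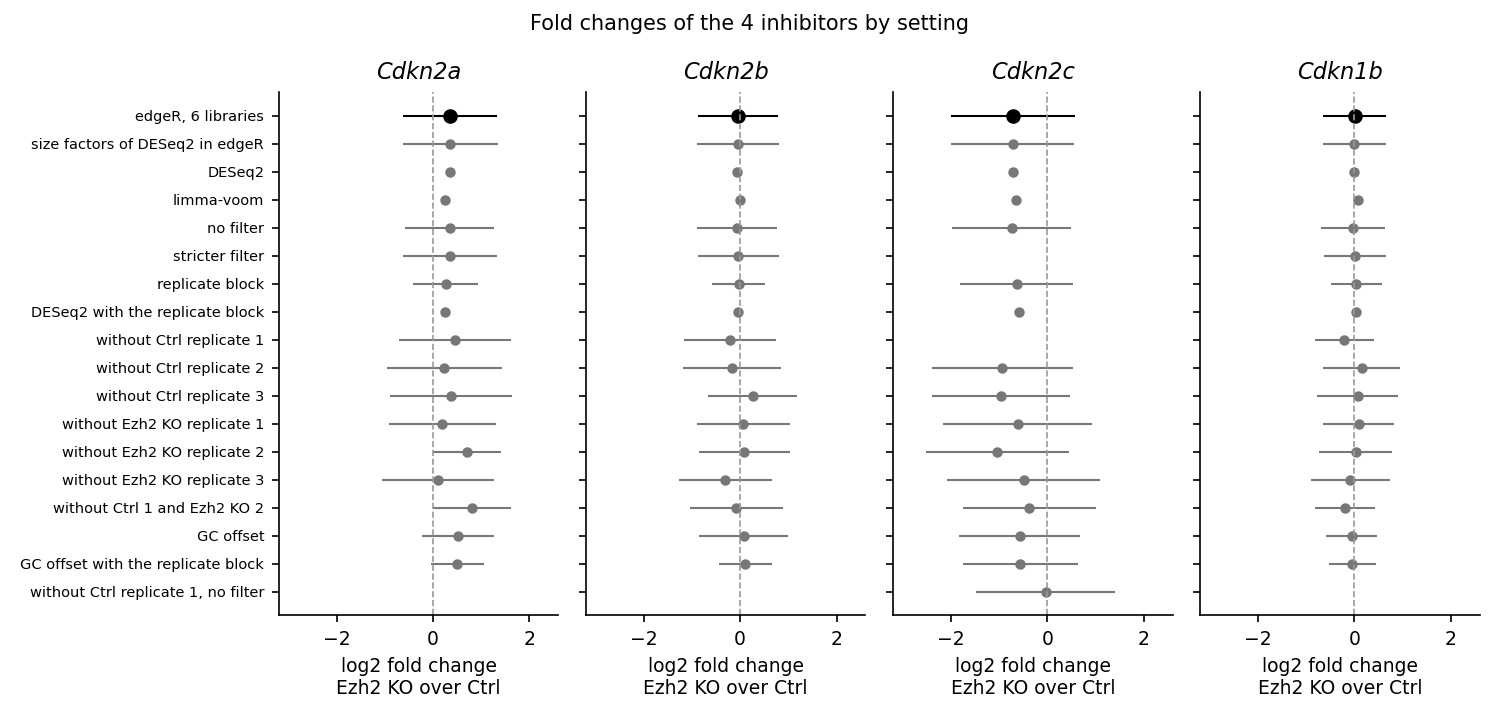
Log2 fold change of each inhibitor, Ezh2 KO over Ctrl (horizontal axis), with all 6 libraries in edgeR (black) and under each alternative (grey); bars are 95% intervals, drawn for the edgeR fits. All edgeR intervals span 0, and Cdkn2c has no point where it did not pass the filter.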

How the data were processed

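Read counts of 3 Ctrl and 3 Ezh2 KO libraries were used as deposited by the authors, 1 whole-number count per Ensembl gene and library, not normalised. Per the submitters' processing notes, the tools were featureCounts, TopHat2 2.0.11, Trimmomatic 0.33 and CASAVA 1.8.4, and the builds NCBIM37 and mm9. Of settings, strand use and annotation version, none is given in the sources used here. Symbols, exon lengths and GC content came from GENCODE M21 by gene ID (5072 of 37991 IDs had no symbol). That annotation is of another build, so its coordinates were not used; in it no other gene overlaps the 4 inhibitors. Promoter windows are RefSeq's, matched by symbol.

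Genes kept by filterByExpr (minimum count 10) numbered 16420 and were all tested with the robust quasi-likelihood test of edgeR 4.0.16 (R 4.3.3) on TMM-scaled counts, with group alone in the model, a two-sided p and Benjamini-Hochberg adjustment over all of them and a threshold of 0.05. The script was tested on simulated data. The log2 CPM used a prior count of 2. Genes named were the 4 inhibitors, all members of 7 lists, the 2 members of smallest p of the other lists, and the 3 genes most like each inhibitor; members and lists were chosen with earlier results of these data known. Dcn, Lum, Pou3f1 and further genes beyond this rule (Mdm2, Trp53, Npm1, Dppa3, Prdm14, Kit, Dnd1, Nanos3, Itgb3, Pecam1, Hbb-bh1, Ptprc, Fgf5, Thy1) were named after their values were seen.

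The numbers 1 to 3 occur in both groups. After each group's mean was removed, libraries correlated at 0.583, 0.368 and 0.192 for the pairs numbered 1, 2 and 3. On the data's evidence, not from the labels, pairing by number was therefore fitted as an alternative, the replicate block. The main test did not pair the libraries. Ctrl replicate 3, however, correlated best with Ezh2 KO replicate 2. Alternatives were size factors of DESeq2, DESeq2 1.42.0, limma-voom (limma 3.58.1), no filter, a stricter one (3 libraries at 1 CPM or more, and 20 counts on average), the replicate block, each library left out, the ends of the first principal component left out, and a GC offset (loess, span 0.5). One alternative, for Cdkn2c, was added after seeing the data.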

Additional observations from a re-analysis of the deposited data

How the results depend on the processing

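The interval was widest for Cdkn2c, which had 9 to 41 reads per library. The median half-width of a 95% interval over all tested genes was 0.71 on the log2 scale, against 0.97 for Cdkn2a, 0.84 for Cdkn2b, 1.28 for Cdkn2c and 0.65 for Cdkn1b. The count of genes called was 0 in edgeR, 5 in DESeq2 and 50 in DESeq2 with the replicate block, 0 at an adjusted p of 0.10, and 0 in every fit that left out 1 library (0 to 0); 0 of the listed cell-cycle genes were called in DESeq2, with the block in edgeR or without any 1 library. With the replicate block the log2 fold changes were 0.27 for Cdkn2a, -0.03 for Cdkn2b, -0.64 for Cdkn2c and 0.04 for Cdkn1b, and the pairing changed no call of these 4. Ccne2, Cbx8 and Kdm6b crossed an unadjusted p of 0.05 with the block and did not pass after adjustment.

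With 1 library left out, the log2 fold change ran from 0.11 to 0.70 for Cdkn2a, -0.30 to 0.26 for Cdkn2b, -1.04 to -0.03 for Cdkn2c and -0.21 to 0.15 for Cdkn1b. The Cdkn2c value nearest 0, -0.03, is the added fit without Ctrl replicate 1 and with no filter; the planned ones ended at -0.49. Cdkn2b turned positive in limma-voom (0.0027), under the GC offset (0.0699) and under that offset with the replicate block (0.11), and with 1 library left out: Ctrl 3 (0.26), Ezh2 KO 1 (0.07) or Ezh2 KO 2 (0.09). Cdkn1b turned negative with the size factors of DESeq2 (-0.00072), in DESeq2 (-0.0043), with no filter (-0.024), under the GC offset (-0.055), under it with the block (-0.045), and without Ctrl replicate 1 (-0.21), Ezh2 KO replicate 3 (-0.086) or Ctrl replicate 1 and Ezh2 KO replicate 2 (-0.20). Each of these values with an SE lies within 1 SE of 0, and the cause of the turns was not tested. Cdkn2c could not be fitted under the stricter filter or, with the default filter, without Ctrl replicate 1.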
